A study of Mus musculus with 4 samples.

Results

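The variable (V) and joining (J) genes of the T-cell receptor alpha chain were described in 4 bulk RNA-seq libraries of mouse T cells. The rule for the genes uses only the name: every gene whose symbol starts with Trav or Traj was taken, which gave 188 of the 50600 genes in the tables, 128 Trav and 60 Traj. All 188 lie on the plus strand of chromosome 14 (mm10). The libraries form a single group of primary T cells from strain C57BL/6NJ, with 1 library for each of 4 biological replicates. The file headers name them mmTh0, activated, 72 h, and the labels link a differentiation protocol for CD4+ T cells. The assay is labelled total RNA-seq, while the linked library protocol is one for polyA+ RNA. All 4 libraries carry the same donor identifier, so nothing in the labels shows that they came from separate animals. The p-values cover these libraries only, and measure a gene's spread between them beyond that of genes of like abundance. Age and sex are not given.

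The alpha chain is assembled in the thymus. The Rag recombinase joins 1 of the V genes to 1 of the J genes and removes the DNA between them, and splicing then joins the J exon to the constant gene Trac. A chromosome can rearrange more than once, each time with a V gene farther out and a J gene nearer to Trac. The V part of the locus in this strain group holds a large repeated block, whose copies carry a d or an n after the family number in their symbols, as in Trav14d-3-dv8 and Trav14n-3. Several of these genes, with dv in the symbol, can also be used by the delta chain, whose genes lie inside the alpha locus.

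Each J gene is a single short exon, of 29 to 72 bases, and most hold the codons of the conserved Phe-Gly-X-Gly stretch of a J segment. The exons below are shown because the J results turn on them: the J gene farthest from Trac, the 4 of highest count, a pair used in the invariant chains of natural killer T cells (Traj18) and mucosal-associated invariant T cells (Traj33), and the J nearest to Trac. They were read from the GENCODE mouse release 21 transcripts (GRCm38, plus strand, 5′ to 3′), and capitals mark the first match to TTTGGNNNNGG or TTCGGNNNNGG.
Traj61: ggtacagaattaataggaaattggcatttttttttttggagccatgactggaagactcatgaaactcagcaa
Traj33: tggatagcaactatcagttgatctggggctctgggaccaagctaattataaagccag
Traj18: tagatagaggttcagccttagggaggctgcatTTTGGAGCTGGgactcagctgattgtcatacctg
Traj6: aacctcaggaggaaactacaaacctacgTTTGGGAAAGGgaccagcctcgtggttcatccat
Traj4: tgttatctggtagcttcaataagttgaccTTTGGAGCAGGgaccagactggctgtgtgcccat
Traj3: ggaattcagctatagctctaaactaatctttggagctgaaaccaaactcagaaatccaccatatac
Traj2: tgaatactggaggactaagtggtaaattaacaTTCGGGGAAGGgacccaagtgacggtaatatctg
Traj1: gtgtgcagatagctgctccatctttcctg
The motif was found on the plus strand of 42 of the 51 Traj genes annotated as genes and of 1 of the 9 annotated as pseudogenes, Traj54. It was found on the minus strand of none of the 60. In the first 60 bases of 1 transcript of each of 21888 protein-coding genes it was present on the plus strand in 0.845%. A missing match, as in Traj3 and Traj33, says only that these letters are not in the exon.

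The V genes are longer, 155 to 595 bases over their exons, and many are copies of each other. The last 60 bases of 4 Trav14 genes are shown because they separate copies that can be told apart from copies that cannot, and capitals mark the bases at which a pair differs.
Trav14n-3: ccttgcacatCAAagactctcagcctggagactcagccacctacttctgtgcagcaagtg
Trav14d-3-dv8: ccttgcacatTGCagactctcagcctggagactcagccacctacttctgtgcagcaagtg
Trav14d-1: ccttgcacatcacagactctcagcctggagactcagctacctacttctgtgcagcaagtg
Trav14n-1: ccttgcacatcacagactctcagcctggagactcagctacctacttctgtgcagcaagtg
The first pair differs at 3 of these 60 bases. The second pair is identical over the whole annotated transcript, and both of its members had 0 counts in all 4 libraries.

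The libraries held 58522696, 53569919, 49613182 and 94222415 counts in replicates 1 to 4. All 8 alpha-beta T-cell markers, Cd4 and Trac among them, were at 1 TPM or more in every library. TPM is a count scaled to exon length and to the library's sum. Trac averaged 1768 ± 84.7 TPM (SD, n = 4) and Cd4 1056 ± 62.8 TPM, against 0.190 ± 0.0957 TPM for Cd8a. None of the 6 gamma-delta, 3 natural killer T-cell or 4 myeloid markers reached 1 TPM in every library. In the other lists 1 of 2 CD8 markers (Cd8b1, 15.8 ± 2.38 TPM), 1 of 5 immature thymocyte markers and 1 of 4 B-cell markers did. In bulk RNA, fewer cells that use a gene and less RNA of it per cell cannot be told apart. Libraries 1 and 2 held Xist at 332 and 150 TPM and libraries 3 and 4 at 0.877 and 0.392 TPM, and Ddx3y on the Y chromosome ran the other way, at 0.0344, 0.0834, 49.0 and 45.8 TPM. This split goes against a single donor for all 4, and library values are therefore given one by one.

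Counts on V genes stood in a near-constant ratio to Trac, and counts on J genes did not. Trav genes together had 4820, 4628, 4229 and 8281 counts in replicates 1 to 4, which is 18.1, 18.0, 17.8 and 17.2 per 100 Trac counts. Traj genes together had 755, 269, 318 and 476 counts, which is 2.84, 1.05, 1.34 and 0.987 per 100 Trac counts. Library 1 was therefore the highest for the J genes, although library 4 was sequenced deepest, and it was also the highest for 31 of the 59 J genes with a count once scaled to depth. For the V genes with a count, the highest library was library 1 for 16 of 79. The same ratio for the beta chain, whose genes lie on another chromosome, was 6.27, 5.38, 6.44 and 4.93 Trbj counts per 100 counts of the Trbc genes. Library 3 was the highest there and library 1 next, while for Traj library 1 was the highest and library 3 next. Library 4 was the lowest for both.

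Per length, the summed level of the Traj genes was 768, 295, 407 and 305 TPM, against 744, 742, 785 and 771 TPM for the summed Trav genes. The Traj sum was thus 1.03 times the Trav sum in library 1 and 0.395 to 0.518 times in the other libraries. As a share of the Trac level, the Trav sum averaged 43.0% ± 1.08 and the Traj sum 25.4% ± 13.6 (SD, n = 4). The counting command set no option for fragments that overlap more than 1 gene, and by default featureCounts leaves these out, so a fragment that spans a V and a J exon, or a J exon and Trac, adds to neither gene. A J exon is shorter than a fragment, so its per-length level is not on the same footing as that of a V gene, and its counts are given beside its shares. The RNAs Malat1 and Neat1, which stay in the nucleus, were, like the Traj sum, highest in library 1 and next in library 3. Malat1 stood at 96.3, 30.5, 59.6 and 41.5 TPM, and Neat1 at 14.9, 9.63, 11.1 and 9.53 TPM, in replicates 1 to 4. Malat1 and Neat1 were looked up after the Traj counts were seen, and their part in the Traj counts was not tested.

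J genes near Trac held most of the J counts. The share of a gene is its count per base over the summed count per base of all genes of its kind in that library. The 20 Traj genes nearest to Trac held 58.8, 56.6, 67.7 and 61.1% of the Traj sum in replicates 1 to 4, a mean of 61.0% ± 4.81 (SD, n = 4). The middle 20 held 29.0% ± 3.69 and the 20 farthest from Trac 9.94% ± 1.27, and the order of these 3 groups was the same in every library. Across the 60 genes, the rank of the share rose with the rank toward Trac, with a Spearman rho of 0.79 for the mean share and of 0.66, 0.49, 0.70 and 0.74 in replicates 1 to 4. The genes share 1 locus and 4 libraries, so rho is a description over 60 genes and carries no p. Fragments that overlap a J exon together with a V exon or Trac are left out of these counts. Reads on a J exon need not come from chains that use it, and whether the rise toward Trac follows the use of J genes was not tested.

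**Figure D1:**
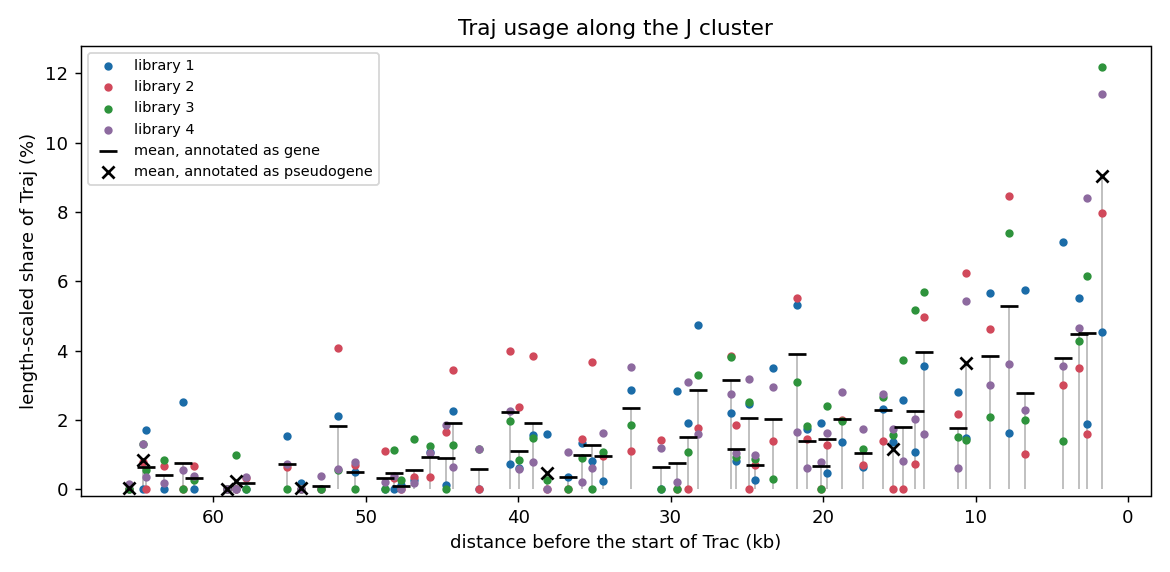
Each column of points is 1 of the 60 Traj genes, placed by the distance of its start before the start of Trac (kb) and drawn at its length-scaled share of the Traj sum (%) in each of the 4 libraries. Bars mark means of genes annotated as genes and crosses those of pseudogenes: Traj1, 1.71 kb before Trac, had the highest mean share, 9.02%, and Traj61, at 65.52 kb, was at 0.0410%.

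The last block of 10 genes, Traj11 to Traj1, held 295 of 755 Traj counts in library 1, which is 39.1% (exact Clopper-Pearson 95% interval 35.6 to 42.7%). In libraries 2, 3 and 4 it held 108 of 269, 131 of 318 and 194 of 476 counts, which is 40.1%, 41.2% and 40.8%. The 4 intervals of this block overlapped each other, and all 4 lay above the intervals of every other block. The first block, Traj61 to Traj52, held 48, 9, 13 and 21 counts, or 6.36, 3.35, 4.09 and 4.41%. The middle blocks moved more between libraries. Traj41 to Traj32 held 20.8% (16.1 to 26.2%) of the counts in library 2, against 9.67, 9.75 and 9.87% in libraries 1, 3 and 4. Traj21 to Traj12 held 24.2% (19.6 to 29.3%) in library 3, against 18.3, 13.8 and 17.0% in libraries 1, 2 and 4. The intervals cover counting error only, since read pairs without molecular identifiers are not independent molecules.

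**Figure D2:**
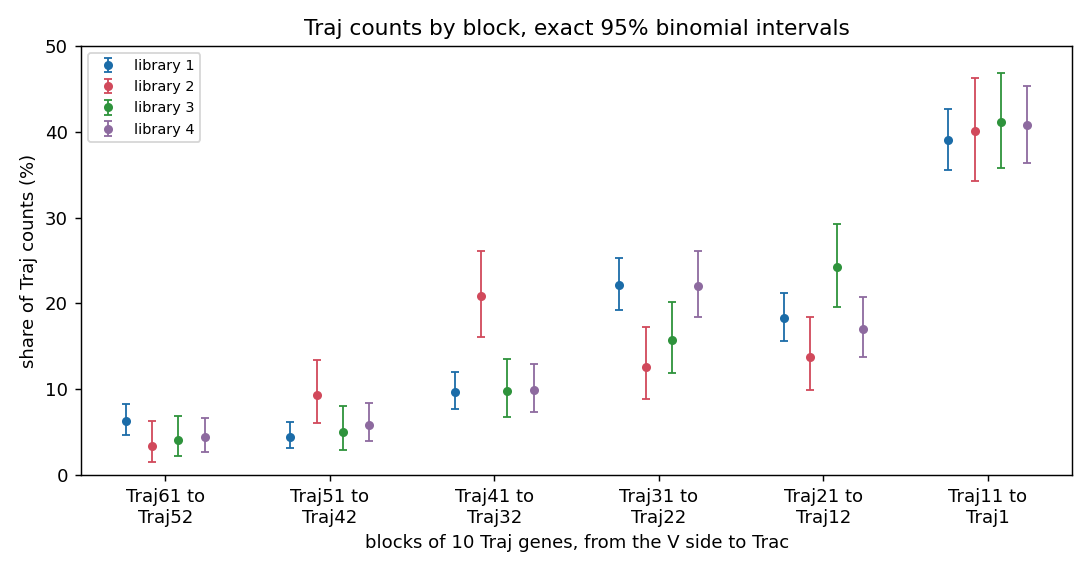
Share of all Traj counts (%, not scaled to length) held by successive blocks of 10 Traj genes from the V side to Trac, 1 point per library with its exact 95% binomial interval. The block next to Trac sits between 39.1 and 41.2% in all 4 libraries.

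Single J genes had few counts. Of the 60 Traj genes, 59 had a count in at least 1 library, 32 had one in every library and 4 had at least 10 in every library (Traj26, Traj6, Traj3 and Traj1). Traj55, a pseudogene, was at 0 in all 4, which allows up to 0.397, 1.12, 0.943 and 0.630% of the Traj counts in replicates 1 to 4 at a floor of 3 counts.

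The leading J genes all lay in the 20 genes nearest to Trac. Traj1 (chr14:54218814-54218842), annotated as a pseudogene, had 17, 11, 20 and 28 counts in replicates 1 to 4. With its exon of 29 bases that made it the first by share, at 9.02% ± 3.50, but by count it held 4.63% ± 1.85 of the Traj counts. Traj3 (chr14:54217292-54217357) had the most counts, 47, 11, 16 and 26, with a share of 4.49% ± 0.843,. Its neighbour Traj2 had 16, 5, 23 and 47 counts, with a share of 6.15 and 8.41% in libraries 3 and 4 and of 1.88 and 1.59% in libraries 1 and 2. Traj6 had 13, 25, 26 and 19 counts and a share of 5.28% ± 3.20, highest in library 2. Traj4 had 58, 9, 5 and 19 counts and a share of 3.78% ± 2.43, highest in library 1. Traj11 had 27, 14, 19 and 8 counts, with a share of 3.95% ± 1.80. Traj7 had 43, 13, 7 and 15 counts, with a share of 3.84% ± 1.60. Traj21 had 39, 15, 10 and 8 counts, with a share of 3.90% ± 1.85. The SD ranges of these 8 genes overlapped, apart from those of Traj3 and Traj7 with that of Traj1. Traj1 was not the first by share in library 1 (4.55%, against 7.15% for Traj4). Nor was it the first in library 2 (7.96%, against 8.46% for Traj6), so the order of the 8 genes is not fixed by these libraries.

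At the other end of the cluster, Traj61, 65.52 kb before Trac, had 1 count in library 4 only. Traj60 had 0, 2, 4 and 6 counts, and Traj59 had 14, 0, 2 and 2. The lowest shares among genes with a count were those of Traj61, Traj51, Traj50 and Traj45, each with 1 or 2 counts in all. Low counts were not limited to the far end, since Traj23 had 2, 2, 3 and 5 counts. A few J genes were counted almost only in library 1: Traj57 had 21, 0, 0 and 3 counts, Traj36 had 13, 0, 1 and 0, and Traj29 had 22, 0, 0 and 1. Traj23, Traj57, Traj36 and Traj29 were chosen after their values were seen.

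Traj18 and Traj33 join the V genes Trav11 and Trav1 in the invariant chains named above. Traj18 had 4, 4, 9 and 9 counts, and Trav11 had 0, 0, 2 and 0. Trav11d, whose every 50-base word is also in Trav11, had 0 in all libraries, so the counts of both are limited by their shared sequence. Traj33 had 6, 10, 0 and 3 counts, and Trav1 (chr14:52427928-52428876), the V gene farthest from the J cluster, had 8, 28, 29 and 33. Counts per gene do not show which V was joined to which J.

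Among the V genes, the counted reads were spread over many genes, and the order of the genes was much the same in the 4 libraries. A count was seen for 79 of 128 Trav genes, in every library for 65, and of at least 10 in every library for 52. The effective number of genes, the exponential of the Shannon entropy of the shares, was 47.5 ± 2.14 for Trav and 33.2 ± 2.33 for Traj (SD, n = 4). Both numbers describe the counted reads, not the use of genes in chains. The 10 leading Trav genes held 41.4% ± 1.82 of the Trav sum and the 10 leading Traj genes 45.6% ± 4.68 of the Traj sum. Between pairs of libraries, the shares of the 128 Trav genes had a Spearman rho of 0.93 to 0.98, and those of the 60 Traj genes one of 0.41 to 0.67. The Traj values rest on far fewer counts, 269 to 755 a library against 4229 to 8281 for Trav, and the 49 Trav genes at 0 in all libraries are included. Over the 79 Trav genes with a count, rho was 0.88 to 0.96. Both kinds varied more than counting gives: the chi-square per degree of freedom of the counts by gene and library was 4.47 for Trav and 3.68 for Traj.

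Trav14n-3 (chr14:53370077-53370575), an n copy 850.44 kb before Trac, was the highest V gene, with 269, 271, 259 and 505 counts, or 48.2 ± 3.31 TPM. Trav4-4-dv10 (chr14:53683647-53684177) followed with 250, 240, 202 and 388 counts, or 40.3 ± 1.20 TPM, and was below Trav14n-3 in every library. Trav13-1 had 217, 149, 185 and 299 counts (34.9 ± 5.77 TPM). Trav14-2 had 257, 181, 152 and 304 counts (31.3 ± 5.56 TPM). Trav14-3 had 169, 195, 176 and 334 counts (30.5 ± 2.92 TPM). Trav3-3 had 268, 146, 172 and 361 counts (30.0 ± 6.79 TPM). Trav14d-3-dv8 had 185, 200, 230 and 358 counts (29.0 ± 5.14 TPM). Trav17, which shares no 50-base word with another Trav gene, had 129, 143, 142 and 267 counts (26.6 ± 3.17 TPM). From Trav13-1 down to Trav17 the neighbours in this order differed by less than their SDs.

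By family, Trav14 led. With 9 genes of which 4 were at 0 in all libraries, it held 20.5, 20.1, 20.7 and 20.1% of the Trav sum in replicates 1 to 4, a mean of 20.3% ± 0.312. Trav7 held 10.6% ± 1.03, Trav9 9.35% ± 0.689, Trav6 9.24% ± 0.793, Trav13 8.08% ± 1.09 and Trav4 8.06% ± 0.475. At 0 in all libraries were 3 of the 13 Trav7 genes, 4 of the 11 Trav9 and 4 of the 15 Trav6 genes. For Trav13 it was 3 of 12 genes and for Trav4 5 of 9. The order of families is that of the counted reads only. Families of 1 gene were lower than these, from 3.50% ± 0.336 for Trav17 and 1.87% ± 0.537 for Trav2 to 0 for Trav22.

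Most of the V level came from genes on the J side that carry neither letter. The 43 Trav genes nearest to the J cluster held 66.6% ± 1.71 of the Trav sum, the middle 43 held 21.2% ± 1.41 and the farthest 42 held 12.2% ± 0.480. In the same order, 4, 22 and 23 of these genes were at 0 in all libraries. None of the nearest 43 carries a letter, so position and letter cannot be told apart here. The 55 genes with neither letter held 75.5% ± 1.96, the 34 n copies 13.5% ± 0.735 and the 39 d copies 10.9% ± 1.4. Across the 128 genes, the Spearman rho between rank toward the J cluster and mean share was 0.35, and it was 0.29, 0.34, 0.29 and 0.29 in replicates 1 to 4. The level was not highest at the very edge. Trav21-dv12, 344.54 kb before Trac, was the nearest gene with at least 10 counts in every library, with 58, 78, 69 and 107 counts (11.9 ± 2.04 TPM), while Trav23, at 243.37 kb, had 2 counts in library 2 only. Trav2, 1653.32 kb before Trac, was the farthest such gene, with 137, 98, 73 and 124 counts (14.1 ± 3.77 TPM).

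**Figure D3:**
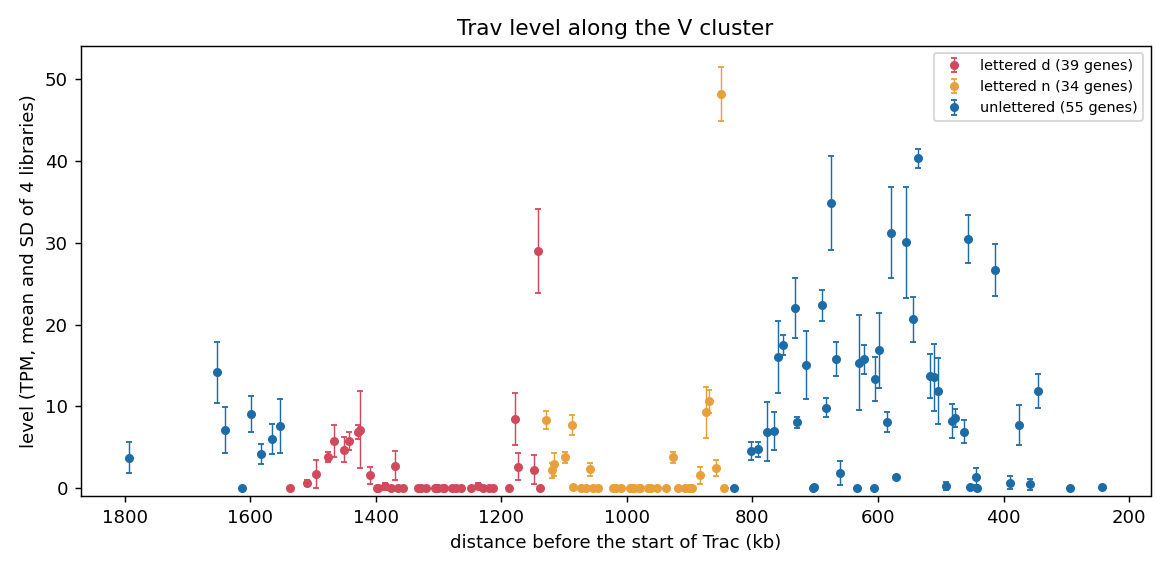
Each point is 1 of the 128 Trav genes, placed by the distance of its start before the start of Trac (kb) and drawn at its mean level (TPM) with the SD of 4 libraries, coloured by the letter in its symbol. The 55 genes with neither letter hold 75.5% of the Trav sum, with the lettered Trav14n-3 (48.2 TPM) and Trav14d-3-dv8 (29.0 TPM) standing among copies at or near 0.

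The copies at 0 were for the most part those with no sequence of their own. Every 50-base word of 39 Trav genes was also present in another Trav gene, and 37 of these had 0 counts in all 4 libraries. The exceptions were Trav7d-5, with 4 counts in library 3, and Trav11. The read length is not given in the sources used here, but 37 of the 49 genes at 0 also shared every 100-base word. Of the 89 genes with at least 1 50-base word of their own, 12 had 0 in all libraries, of which 8 were pseudogenes. The other 4 were Trav7d-2, Trav15d-1-dv6d-1, Trav13d-3 and Trav12n-3. They shared 99.7, 85.6, 98.2 and 99.7% of their 50-base words, so they had little sequence of their own to be counted by. Of the 49 genes at 0 in all libraries, 43 carried a d or an n. The command set no option to count reads that map to several places, so a 0 in an identical copy is no measure of its use. Unlettered genes were touched as well: Trav7-2 and Trav6-6 shared every word and were at 0, and Trav7-4 shared 75.1% of its words. The shares of the 3 classes are those of the counted reads only. Whether position would order the levels if these copies could be counted was not tested.

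**Figure D4:**
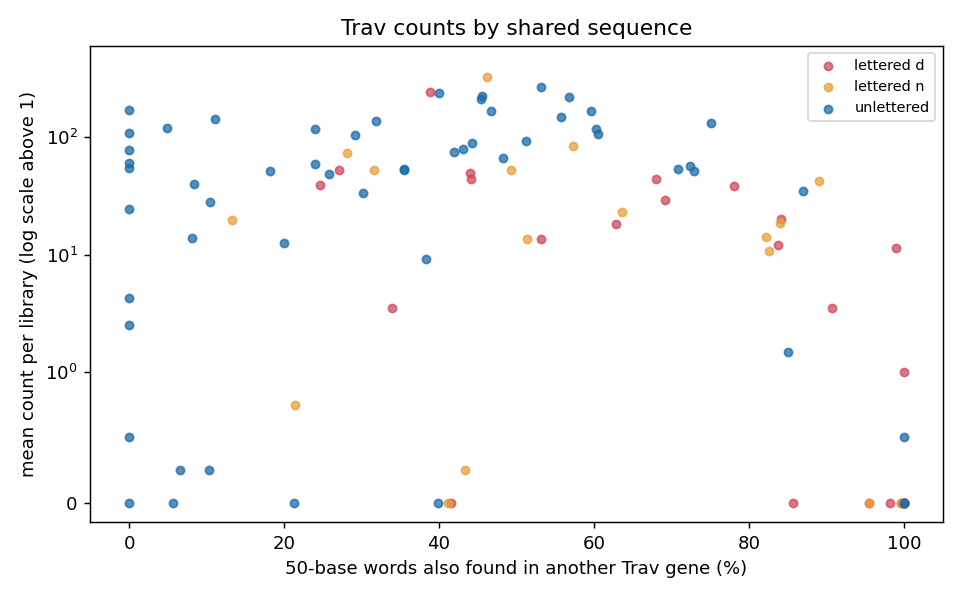
Share of a Trav gene's 50-base words that are also found in another Trav gene (%) against its mean count per library (log scale above 1), 1 point per gene, coloured by the letter in its symbol. Of the 39 genes at 100%, 37 lie at 0 counts, while Trav14n-3, at 46.2%, has the highest mean count, 326.

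Where every copy of a gene had a count in every library, no class led in every set. The symbols formed 31 sets of a d, an n and an unlettered gene of the same number. In 15 sets the d and n copies were both at 0 in all libraries and the unlettered gene was not, and in 2 sets all copies were at 0. In 8 sets every copy had a count in every library. The unlettered gene was the highest in all libraries in 4 of these 8, and the n copy in 1, which was the set of Trav14-3: Trav14n-3 stood at 48.2 ± 3.31 TPM, Trav14-3 at 30.5 ± 2.92 and Trav14d-3-dv8 at 29.0 ± 5.14. In the set of Trav13-1 the unlettered gene stood at 34.9 ± 5.77 TPM, Trav13d-1 at 2.72 ± 1.78 and Trav13n-1 at 2.29 ± 0.802. These copies were not equally countable, since Trav13-1 shared 45.4% of its 50-base words, Trav13d-1 84.1% and Trav13n-1 82.3%. In the sets of Trav10 and Trav9-4 every copy was counted, though not in every library, and the unlettered gene was the highest in all libraries. In the set of Trav6-6 only Trav6n-6 was counted (7.67 ± 1.23 TPM), while Trav6-6 and Trav6d-6, identical to each other, were at 0. Some genes annotated as pseudogenes were counted too: Trav8-2 had 55, 45, 25 and 89 counts and Trav9n-1 had 15, 5, 14 and 20.

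Differences between libraries in single V and J genes did not pass the test. In edgeR's fit over all genes, with Benjamini-Hochberg adjustment, 94 of 13681 genes tested were called variable between the 4 libraries at an adjusted p under 0.05, which is 0.687%. None of the 52 Trav genes and none of the 3 Traj genes tested was called. The dispersion was fitted on the same 4 libraries, so a call means more spread than in genes of like abundance. A gene that was not called may still differ between libraries. At an unadjusted p under 0.05 there were 2 Trav genes and 1 Traj gene, beside 959 of all 13681 genes, which is 7.01%. DESeq2 flagged none of the 55 as a dispersion outlier, beside 43 of all 13681 genes. The other 57 Traj genes had too few counts to pass the filter of this fit. In edgeR's fit without the filter, 67 of 23575 genes were called (0.284%), and none of the 59 Traj and 79 Trav genes with a count. At an unadjusted p under 0.05 that fit held 10 of the 59 Traj genes and 5 of the 79 Trav genes, beside 5.23% of all genes. The lowest of these among Traj was Traj29, with an adjusted p of 0.285 in edgeR, followed by Traj57 and Traj4, all highest in library 1. With a common in place of a trended dispersion, edgeR called Trav9-2, Trav7-3, Trav3-1, Trav6-2, Trav8d-2 and Traj3, which is 5 of 52 Trav genes and 1 of 3 Traj genes beside 4.51% of all genes. With the trended dispersion Traj3 had an adjusted p of 0.488 in edgeR, and Malat1 one of 9.24e-23. Trav9-2 came closest among the V genes, with 69, 141, 137 and 329 counts and an adjusted p of 0.266 in edgeR. Library 1 held its lowest count.

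The V genes of largest spread among those with a mean count of at least 50 were Trav7-3, Trav6-2 and Trav3-1. Trav7-3 had 29, 75, 21 and 88 counts and an SD of 54.2% of its mean share, where counting error alone gives 13.7%. Trav6-2 had 62, 28, 21 and 95 counts (44.2%), and Trav3-1 had 22, 39, 51 and 98 counts (38.2%). Trav6-2 was low in libraries 2 and 3 and Trav3-1 in library 1, so the 3 genes did not share an order of libraries. For the 40 Trav genes with such a mean count, the SD of the share ran from 4.35 to 54.2% of its mean, with a median of 18.7%. It exceeded counting error in 65 of the 79 Trav genes and 48 of the 59 Traj genes with a count. Measured against library totals, the median ratio of the observed to the counting variance was 3.22 for the 48 Trav genes with a mean count of 20 to 200, against 4.20 for all 3360 genes in that range. For the 4 Traj genes in that range it was 8.75.

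**Figure D5:**
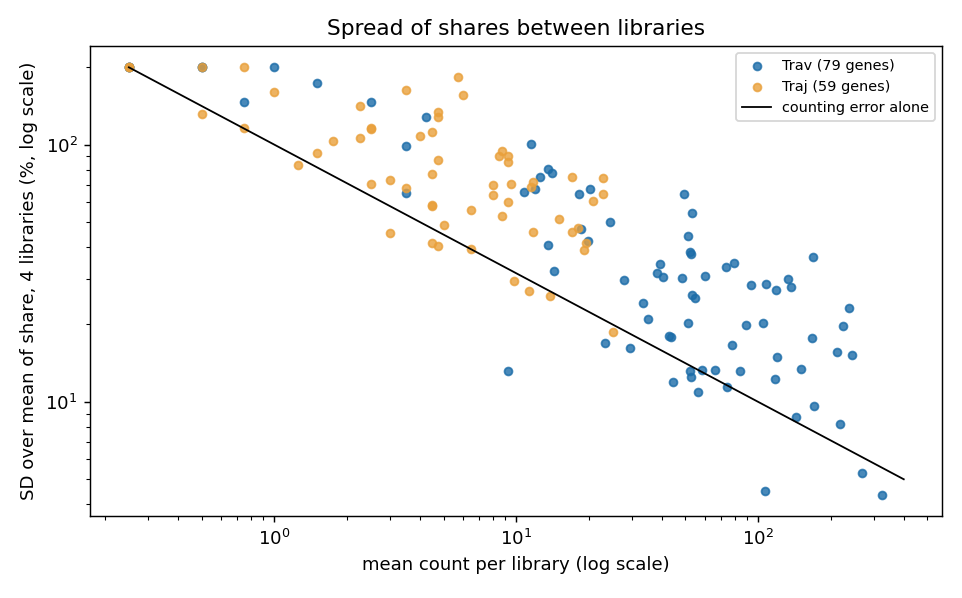
SD over mean of a gene's share in the 4 libraries (%, log scale) against its mean count per library (log scale) for the 79 Trav and 59 Traj genes with a count. The line is the value from counting error alone, and 65 Trav and 48 Traj genes lie above it.

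The machinery that joins the segments was looked at in a list of 33 genes for V(D)J recombination, end joining and regulation of the locus. Of these, 30 were at 1 TPM or more in every library, with mean levels of 6.65 TPM for Dclre1c (the hairpin-opening nuclease Artemis) to 430 TPM for Hmgb2, a DNA-bending cofactor of the Rag proteins. The other 3 were the genes that act only in developing lymphocytes. Rag1, which holds the recombinase's active site, had 2 counts in library 4 and 0 in the others. Its partner Rag2 had 0 in all 4. Dntt, the polymerase that adds untemplated bases at the joints, had 0, 5, 2 and 1 counts. None of the 30 genes tested was called variable in edgeR, beside 0.687% of all genes. At an unadjusted p under 0.05 in edgeR there were 3 of the 30, beside 7.01% of all genes. Ptcra, which pairs with the beta chain before the alpha chain is made, had 1 count in library 4.

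The delta-chain genes inside the locus were low beside Trac. Trdc had 37, 46, 46 and 81 counts, or 0.729 ± 0.118 TPM, against 1768 ± 84.7 TPM for Trac. Trdj1 was at 0 in all libraries and Trdj2 had 1 count in library 2. Of the delta V genes, Trdv1 was counted most, with 39, 28, 27 and 55 counts, or 5.92 ± 0.727 TPM. That is above the level of Trdc, and Trdv1 is not among the gamma-delta markers listed above.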

How the data were processed

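Bulk RNA was measured in 4 mouse T-cell libraries. The authors deposited raw counts per gene, with exon lengths in bases. Per the file headers, read pairs with both ends aligned were counted with featureCounts 1.4.6-p4 on the reverse strand, over exons of GENCODE mouse release 13, and the command set neither -M (multimapping reads) nor -O (overlap with several genes). The build is mm10, per the labels. The aligner's version is not given in the sources used here.

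TPM, shares and positions were computed from the counts and lengths. Symbols and transcripts came from GENCODE mouse release 21, which matched 50376 of 50600 identifiers and gave the same start and end for 188 of 188 members. Shared sequence was measured as 50-base words on the transcripts' own strand. Variability was tested in edgeR 4.0.16 (TMM, filterByExpr, trended dispersion, deviance of an intercept-only fit against a chi-square distribution, Benjamini-Hochberg over all genes), with DESeq2 1.42.0 as an alternative, under R 4.3.3. The procedure was tested on simulated counts drawn from its own fitted dispersion over all genes. Recovery at the low counts of the Trav and Traj genes was not measured separately. Python 3.11.15, pandas 2.3.3, numpy 2.4.6, scipy 1.17.1 and matplotlib 3.10.9 did the rest. The labels give 1 group, so no groups were compared. The genes named are the nearest and farthest of each cluster, those of highest and lowest share, the invariant-chain genes and those of largest spread. The rule for the members, which uses names only, and the lists were chosen with earlier results of these data known. The bases before each Traj gene were not analysed here.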

Additional observations from a re-analysis of the deposited data

Results flagged for a closer look

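Of 40 values checked over the 4 libraries, 1 had a library that stood apart, and chance gives about 1 in 20. The Spearman rho between the level of the 128 Trav genes and their rank toward the J cluster was 0.34 in library 2 and 0.29, 0.29 and 0.29 in libraries 1, 3 and 4. The gap of library 2 to the nearest of the others was 0.880 of the whole range, above the limit of Dixon's test for 4 samples. Library 2 also had the most Trav genes with a count, 75, against 67, 72 and 72 in libraries 1, 3 and 4. Their part in the rho was not tested.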

How the results depend on the processing

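Of 130 other values of the summary results, 24 moved by more than 1 SD, or by over 1.5 times for a count. With raw counts in place of length-scaled shares, 5 of 32 single genes moved by more than 1 SD: Traj1, Trav14n-3, Trav4-4-dv10, Trav14d-3-dv8 and Trav17. Annotated exon length and low counts limit the J results, and shared sequence limits the V results. Where a setting below moved a value, the cause was not tested. With pseudogenes left out, the 20 Traj genes nearest to Trac held 55.9% of the sum, against 61.0%. Without Traj genes shorter than 50 bases, a setting chosen after seeing the data, they held 54.8%. With genes of a mean count of at least 10 they held 78.1%, and the effective number of Traj genes was 12.3. In libraries 1 and 2 only, the rho of Traj level with position was 0.68. The rho of Trav level with position was 0.31 in libraries 3 and 4 only, 0.43 without pseudogenes, 0.48 for a mean count of at least 10, and 0.23 without genes whose every 50-base word is shared, chosen after seeing the data. Leaving out each library in turn gave 0.31 to 0.35 for that rho. By raw counts, Traj over Trav was 0.0869, Traj was 1.55% of Trac and Trav 17.8%.

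Traj genes with enough counts numbered 9 in libraries 1 and 2 only, 32 at a minimum of 1 count and 0 at 50, and Trav genes 27 at 50. With a common dispersion, edgeR called 617 genes (4.51%), 5 Trav and 1 Traj (Traj3). DESeq2 flagged 43 of 13681 genes as dispersion outliers. Leaving out each library in turn gave 38 to 87 genes, none of them Trav or Traj. No Traj gene had a mean count of at least 50, so that setting gave no value for Traj. The bases before the Traj genes were not run. No paired analysis was possible because the labels give 1 group.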
